A study of Rattus norvegicus with 6 samples.

Results

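The miRNAs described here are 7 that are best known from tissues other than the heart: both strands of miR-122 (liver), miR-192-5p and miR-194-5p (gut, kidney and liver), miR-203a-3p and miR-205 (skin and other stratified epithelia) and miR-375-3p (pancreatic islets and neuroendocrine cells). They were chosen by name, as the probes of the array design that carry these 7 of its 758 rat miRNAs. The samples were total RNA of left ventricular myocardium from male Wistar rats given normal chow (3 samples) or a high-fat diet (3 samples) for 20 weeks. The labels give no age and no diet composition, and they do not say whether each sample was a different rat. The p-values therefore reflect sample-to-sample variation that could be technical. Each sample was labelled with a single dye and read on 1 array, and the number of arrays limits the precision. The muscle miRNAs miR-1-3p, miR-133a-3p, miR-133b-3p, miR-208a-3p, miR-208b-3p and miR-499-5p were well above background on all 6 arrays. So were 49.9% of all 758 miRNAs, and presence alone does not identify the tissue.

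A miRNA is a short RNA cut from a hairpin precursor, and it lowers the output of messenger RNAs that pair with its seed, bases 2 to 8 from the 5′ end. The strand that is loaded for silencing is the guide, and the other strand of the hairpin is usually scarce. miR-122-5p is the dominant miRNA of hepatocytes, where it acts on lipid metabolism, and it circulates in blood when the liver is injured. miR-192 and miR-194 are made from shared precursors in intestine, liver and kidney. In mouse, miR-203 restrains p63 in differentiating epidermis, miR-205 is needed for growth of skin progenitors and miR-375 tunes insulin secretion of islet beta cells.

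The mature sequences of the 7 miRNAs are shown, from RefSeq on build GRCr8, to separate the strands and the seeds that the array distinguishes. All 7 matched by name, and capitals mark the seed.
rno-miR-122-5p: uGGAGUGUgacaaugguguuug
rno-miR-122-3p: aACGCCAUcaucacacuaa
rno-miR-192-5p: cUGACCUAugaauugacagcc
rno-miR-194-5p: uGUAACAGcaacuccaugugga
rno-miR-203a-3p: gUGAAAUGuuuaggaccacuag
rno-miR-205: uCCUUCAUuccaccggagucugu
rno-miR-375-3p: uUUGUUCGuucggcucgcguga
rno-miR-215: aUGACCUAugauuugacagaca
The 7 members had 7 different seeds, so none was a seed relative of another. Among mature rat miRNAs in RefSeq, miR-192-5p was the one member that shared its seed, with miR-215, which is listed last for comparison and equals miR-192-5p at 18 of 21 positions counted from the 5′ end. In the RefSeq annotation Mir192 lies 100 bases from Mir194-2, and Mir194-1 lies 191 bases from Mir215 inside the gene Iars2. Both copies give an identical miR-194-5p, which the array cannot assign to one of them.

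Each member had 2 probes with 8 spots each, and the brighter probe over all arrays stood for the miRNA. A probe was counted as well above background on an array when the scanner software had flagged at least 50% of its outlier-free spots as such. By that rule 3 of the 7 members (miR-192-5p, miR-194-5p and miR-203a-3p) were present on all 6 arrays, against 49.9% of all 758 miRNAs. miR-205 was present on 3 arrays and miR-122-3p on 2. miR-122-5p and miR-375-3p were present on 0 arrays, as were 36.9% of all miRNAs. A miRNA was tested for a diet difference when it was present on at least 3 arrays, which admitted 4 of 7 members and 425 miRNAs in all (56.1%). Values are given either as the processed signal, in fluorescence units not scaled between arrays, or as the scaled signal, which is that value divided by the 75th percentile of the array and given as log2.

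**Figure D1:**
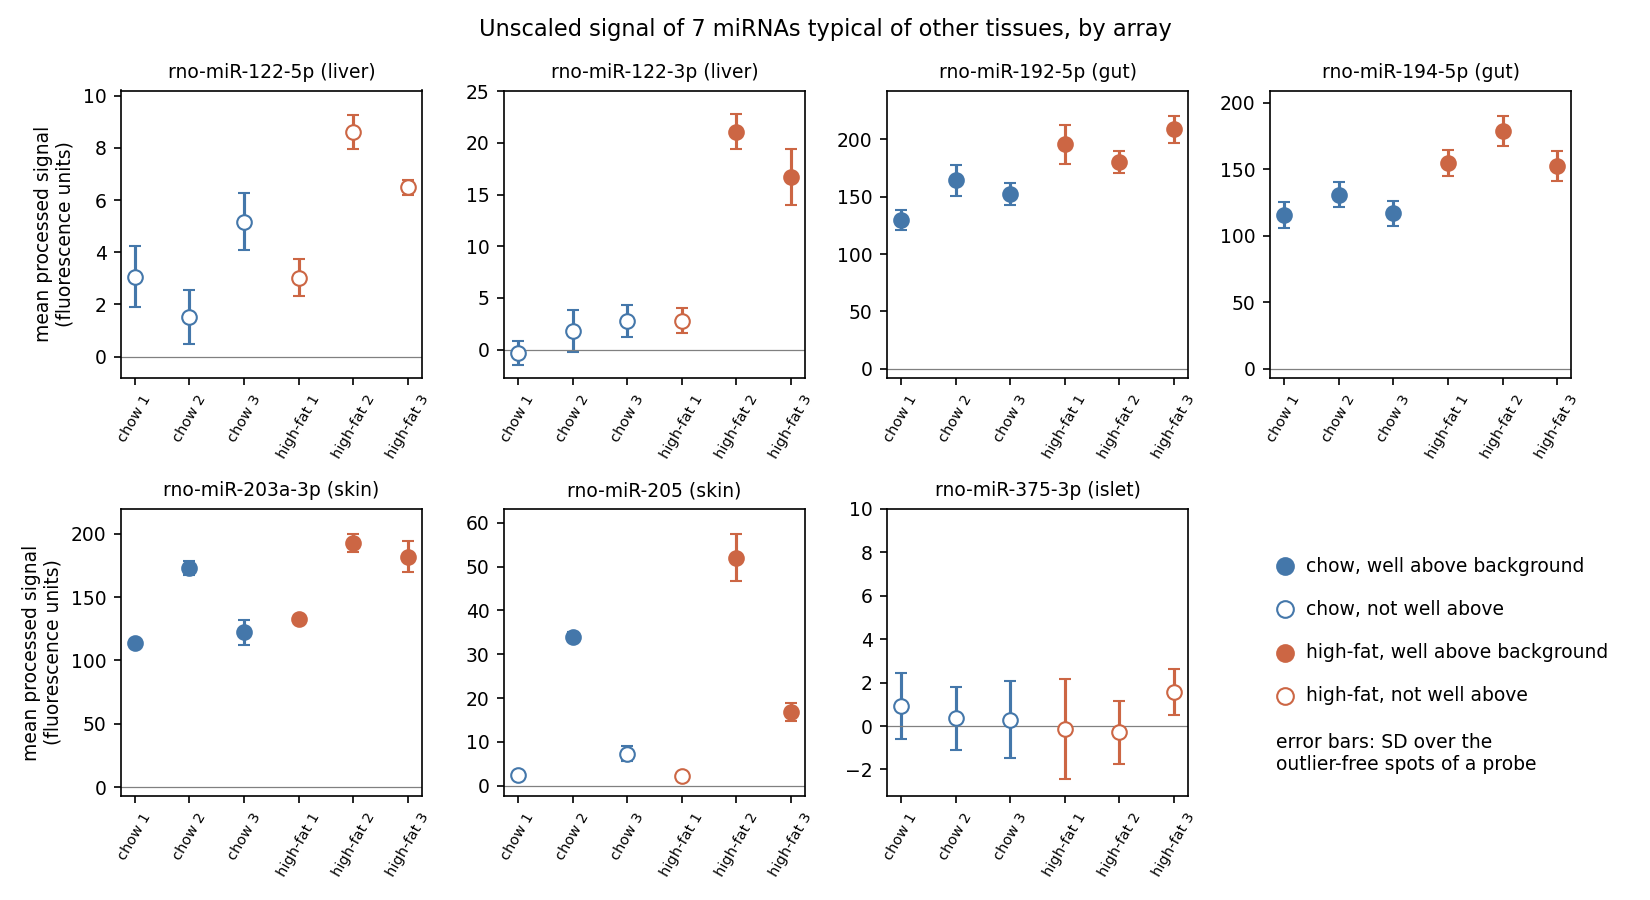
Mean processed signal (fluorescence units, not scaled between arrays) of the brighter probe of each of the 7 miRNAs on the 3 chow and 3 high-fat arrays; error bars are the SD over outlier-free spots, and filled points were well above background. miR-192-5p, miR-194-5p and miR-203a-3p are filled on all 6 arrays, miR-205 on 3 and miR-122-3p on 2, and the panels have different scales.

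The high-fat arrays were brighter in general. Their 75th percentiles of signal were 415 to 561 against 359 to 424 on chow, and 414 to 471 miRNAs per array were well above background against 388 to 418. Chow replicate 1 lay on the same slide as all 3 high-fat arrays (slide 1), while the other chow arrays were on slide 2. The stringency ratio that the scanner software computes from spike-in probes was 0.974 to 1.94 on high-fat and 3.44 to 4.19 on chow arrays. The part of brightness, slide and hybridisation in the results that follow was not tested, except by the fits that are named with them.

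The liver miRNA was near the background of the arrays. The processed signal of miR-122-5p was 3.07, 1.53 and 5.18 on chow replicates 1, 2 and 3 and 3.02, 8.62 and 6.50 on high-fat replicates 1, 2 and 3. Before scaling the 2 highest arrays were high-fat replicates 2 and 3. The diets overlapped, because high-fat replicate 1 lay below chow replicates 1 and 3. After scaling, and before the log2 was taken, chow replicate 3 came between the 2 highest high-fat arrays. The signals were then 0.0162 on high-fat replicate 2, 0.0138 on chow replicate 3 and 0.0116 on high-fat replicate 3. None of the 82 outlier-free spots of its 2 probes over the 6 arrays was flagged well above background (0 of 82). The software's own call per miRNA, which is more lenient, was positive on high-fat replicates 2 and 3 and on 0 chow arrays. Those 2 arrays also had the most miRNAs called by it, 490 and 519, against 433 to 461 on chow. The 99th percentile of the 434 negative control spots was 7.59 to 9.46 on chow and 4.34 to 6.18 on high-fat arrays. The miR-122-5p signals on high-fat replicates 2 and 3 exceeded this percentile of their own arrays but not the highest one found on chow.

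miR-122-3p, the passenger strand of the same hairpin, gave more signal than background on 2 high-fat arrays. Its processed signal was -0.301, 1.83 and 2.80 on chow replicates 1, 2 and 3 and 2.79, 21.1 and 16.7 on high-fat replicates 1, 2 and 3. High-fat replicates 2 and 3 stood far above the other 4 arrays, and high-fat replicate 1 lay within the chow range. On high-fat replicate 2 all 5 outlier-free spots of the probe were well above background, with an SD over spots of 1.70, and on high-fat replicate 3 all 8 were, with an SD of 2.71. The second probe gave 6.76 on high-fat replicate 2, with 2 of 8 spots well above background, and 3.90 on high-fat replicate 3, with 0 of 6. From the means of the scaled log2 signals, high-fat was 1.09-fold chow. On chow the lowest detectable signal of each array stood in for the undetected miRNA. The high-fat mean includes high-fat replicate 1, which did not measure miR-122-3p and entered at the floor, above its own signal. The 1.09-fold is therefore not a lower bound. With only 2 arrays miR-122-3p was left out of the test. The same 2 arrays, and no others, were the ones on which 26 miRNAs of the 758, miR-122-3p among them, were well above background, and they were also the 2 arrays with the most miRNAs detected, 454 and 471. Mir122 overlaps another miRNA gene, Mir3591, in the RefSeq annotation. Its product on the array, rno-miR-3591, was looked up after the miR-122 values were seen and was well above background on 0 arrays.

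The gut miRNAs were present in every sample, and their differences between the diets were smaller than their spread. The processed signal of miR-192-5p was 130, 164 and 153 in the chow samples, and 196, 181 and 209 in high-fat replicates 1, 2 and 3. Every high-fat array was brighter than every chow array before scaling. After division by the 75th percentile the log2 signals were -1.47, -1.37 and -1.30 in the chow samples, against -1.08, -1.56 and -1.42 in the high-fat samples, and the diets overlapped, with high-fat replicate 1 highest and high-fat replicate 2 lowest. The log2 difference, high-fat minus chow, was 0.02 ± 0.14 SE, with a 95% interval of -0.30 to 0.35 (limma adjusted p = 0.951). In bulk tissue fewer cells of a type and less RNA per cell cannot be told apart. The second probe gave a difference of 0.009.

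miR-194-5p likewise showed a small difference between the diets after scaling. Its processed signal was 116, 131 and 117 in the chow samples, and 155, 179 and 152 in high-fat replicates 1, 2 and 3, again with no overlap before scaling. The share of all miRNAs without overlap before scaling is not given here. The scaled log2 signals were -1.63, -1.70 and -1.69 in the chow samples, a span narrower than that of -1.43, -1.57 and -1.88 in the high-fat samples. The high-fat arrays lay on both sides of the chow arrays. The log2 difference was 0.05 ± 0.13 SE, with a 95% interval of -0.26 to 0.35 (limma adjusted p = 0.924), and by the second probe it was -0.012. Without any scaling the differences were 0.394 for miR-192-5p and 0.416 for miR-194-5p (limma adjusted p = 0.241 and 0.222), where the median of all 425 tested miRNAs was 0.321.

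The 2 gut miRNAs were compared with each other over the arrays because their genes neighbour each other. The root mean square distance between their log2 profiles, each centred on its own mean over the 6 arrays, was 0.149, and miR-194-5p ranked 47 among the 424 other tested miRNAs by closeness to miR-192-5p. The median distance of all miRNAs from miR-192-5p was 0.218. Both were highest on high-fat replicate 1, by 0.283 and 0.225 above their means, and they parted on high-fat replicate 2, at -0.191 for miR-192-5p and 0.078 for miR-194-5p. The closest profiles to miR-192-5p were those of miR-2985, miR-331-3p and miR-509-3p at distances of 0.081, 0.084 and 0.104. Closest to miR-194-5p were miR-188-3p, miR-30e-3p and miR-423-5p at 0.065, 0.079 and 0.080.

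Of the relatives of the gut miRNAs, the partner strand miR-194-3p was well above background on 3 arrays (chow replicate 2 and high-fat replicates 2 and 3). Its processed signals of 9.26, 11.96 and 6.84 in chow samples overlapped those of 7.69, 13.8 and 14.7 in high-fat samples, and its log2 difference was -0.02 ± 0.20 SE (limma adjusted p = 0.963). miR-215, which is made beside miR-194 and shares the seed of miR-192, and miR-192-3p were well above background on 0 arrays. Over both probes of miR-215 the processed signal did not exceed 2.42.

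The skin miRNA miR-203a-3p was also present in every sample. Its processed signal was 114, 173 and 122 in the chow samples, and 133, 193 and 182 in high-fat replicates 1, 2 and 3. Scaled log2 signals were -1.66, -1.30 and -1.62 for chow, against -1.64, -1.46 and -1.62 for high-fat. Chow replicate 2 was highest, high-fat replicate 2 came next, and the other 4 arrays lay within 0.04 of each other. The log2 difference was -0.05 ± 0.13 SE, with a 95% interval of -0.35 to 0.24 (limma adjusted p = 0.908), and by the second probe it was -0.125. With slide as a block the sign turned, to 0.081. Slide 2 held no high-fat array, so this is the same comparison as within slide 1, of the high-fat arrays against chow replicate 1. The profiles nearest to it were those of miR-181a-1-3p, miR-30e-5p and miR-1896, at distances of 0.059, 0.061 and 0.065. Its partner strand miR-203a-5p and both strands of miR-203b, from a gene that overlaps that of miR-203a, were well above background on 0 arrays.

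miR-205 varied widely between samples, and it did so inside each diet. Its processed signal was 2.47, 33.9 and 7.30 on chow replicates 1, 2 and 3 and 2.18, 52.0 and 16.8 on high-fat replicates 1, 2 and 3. It was well above background on chow replicate 2 and high-fat replicates 2 and 3, where all 8 outlier-free spots carried the flag. On none of the other arrays did a spot of its probes carry it. The software's more lenient call was positive on chow replicates 2 and 3 and on high-fat replicates 2 and 3. Both probes gave the same order of arrays: the second probe had 3.14, 24.7 and 5.97 for chow, against 2.66, 33.4 and 13.8 for high-fat. Within chow, the scaled signal of replicate 2 was at least 2.71-fold that of replicate 1 and at least 3.00-fold that of replicate 3, taking the lowest detectable signal of those arrays. Within high-fat, replicate 2 was at least 4.55-fold replicate 1 and 3.26-fold replicate 3, and both arrays of that last pair measured it.

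The SD of the scaled log2 signal of miR-205 over the 6 arrays was 1.12, against a median SD of 0.174 over the 425 tested miRNAs. The 3 arrays without detection lay at or near the floor of -5.82, so this SD and its place among the miRNAs depend on the floor. With undetected values set to the lowest detected signal of their array, an alternative chosen after seeing the data, the SD was 0.914 and ranked 3, after miR-31a-5p and miR-141-3p, which were measured on all 6 arrays. The rank with the common floor was 1. The SDs of miR-192-5p, miR-194-5p and miR-203a-3p were 0.164, 0.152 and 0.143, near that median. The diets did not separate. The log2 difference of miR-205 was 0.31 ± 0.75 SE with a 95% interval of -1.44 to 2.05 (limma adjusted p = 0.908), an interval that extends past 1 log2 unit in both directions. It was 1.01 without chow replicate 2, -0.388 without high-fat replicate 2, -0.077 without chow replicate 1, -0.011 without chow replicate 3, 0.845 without high-fat replicate 1 and 0.465 without high-fat replicate 3, and 0 of these passed (limma adjusted p from 0.623 to 0.995). With slide as a block it was 1.08. Slide 2 held no high-fat array, so that fit compared the high-fat arrays with chow replicate 1 alone, where miR-205 lay at the floor. The 2 arrays highest in miR-205, chow replicate 2 and high-fat replicate 2, were also the 2 highest in miR-203a-3p, by 0.255 and 0.087 above its mean on the log2 scale. Only 8 miRNAs, miR-205 included, were well above background on chow replicate 2 and high-fat replicates 2 and 3 and on no other array.

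**Figure D2:**
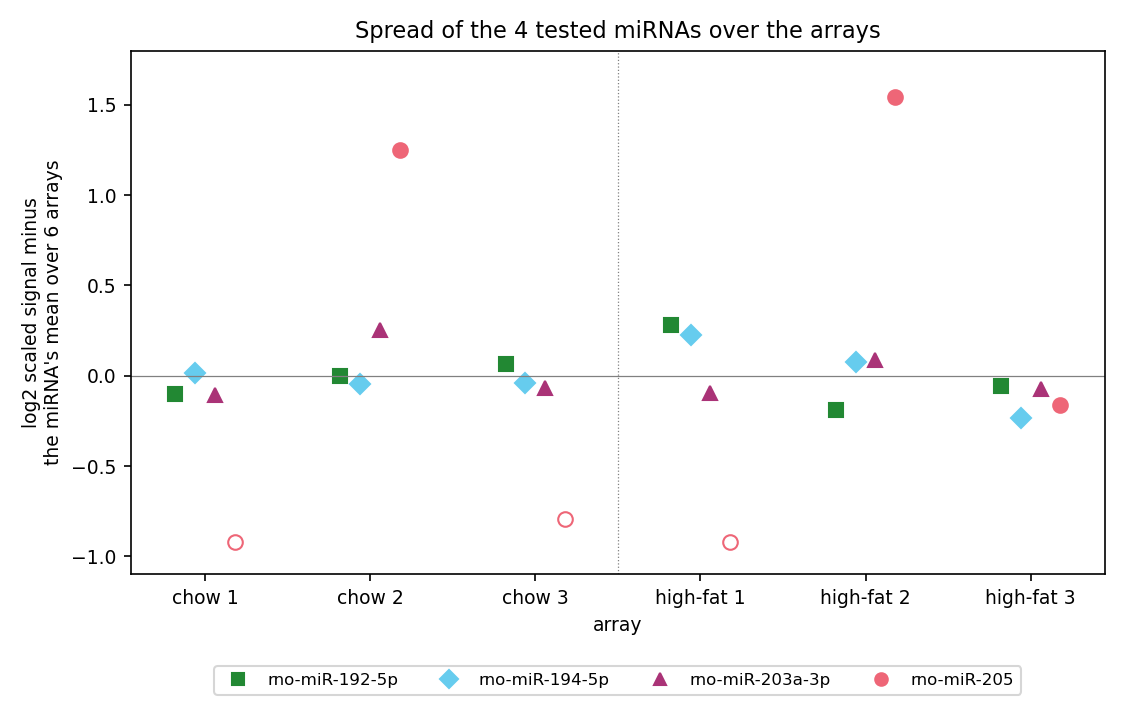
Scaled log2 signal of the 4 tested miRNAs on each array minus the miRNA's own mean over the 6 arrays; open points were not well above background and lie at or near the floor. miR-205 spans 2.47 on this scale, and the other 3 span 0.362 to 0.474.

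The islet miRNA miR-375-3p was not detected above background on any of the 6 arrays. Its processed signal was 0.933, 0.358 and 0.295 in the chow samples, and -0.135, -0.293 and 1.58 in high-fat replicates 1, 2 and 3. The values scattered around 0 in both diets, and 0 of the 80 outlier-free spots of its 2 probes exceeded the 99th percentile of the negative controls of their array. The other strand, miR-375-5p, was well above background on 0 arrays too, with 0 of 82 spots past that percentile.

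The authors' deposited table of normalized log2 values, whose zero point is not given, held many tied values at the minimum of each column. In it miR-205 was at 5.05 on chow replicate 2, 2.79 on chow replicate 3, 5.19 on high-fat replicate 2 and 3.57 on high-fat replicate 3, and it lay at the column minimum on both arrays of replicate 1. miR-122-3p was at 3.47 and 1.64 on high-fat replicates 2 and 3 and at the column minimum on the other arrays. miR-122-5p was above that minimum on the same 2 arrays, at -1.22 and -2.02, and miR-375-3p was at the minimum on all 6.

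The question of the series was how the miRNA profile of the myocardium compares between obese rats fed high fat and chow-fed controls. Of the 4 members tested, 0 passed the limma test at an adjusted p of 0.05, where 2 of all 425 miRNAs (0.471%) did. At an unadjusted p under 0.05 there were likewise 0 of 4, with p-values from 0.690 to 0.866, against 11.8% of all miRNAs. The arrays of the diets did not overlap for 0 of 4 members, against 17.2% of all (6.59% higher on the high-fat diet and 10.6% lower). The difference lay within 0.1 of 0 for 3 of 4 members, against 41.2% of all. The median log2 difference of the 4 was 0.035, with 1 of 4 negative, and that of all 425 was -0.045, with 258 negative. The intervals of miR-192-5p, miR-194-5p and miR-203a-3p lay within -0.35 to 0.35 on the log2 scale, and that of miR-205 did not.

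**Figure D3:**
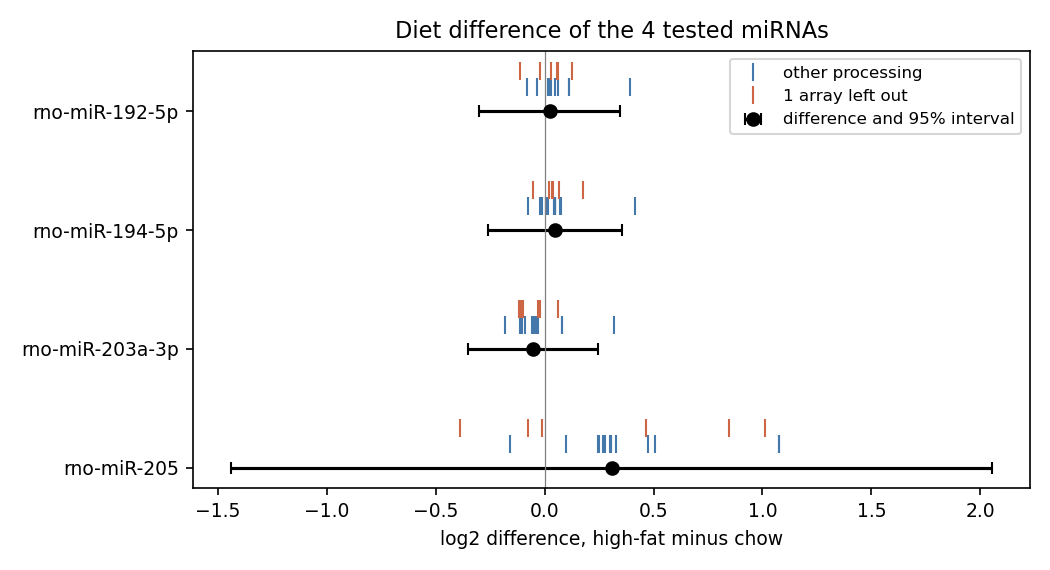
Log2 difference, high-fat minus chow, of the 4 tested miRNAs with its 95% interval (limma, 3 against 3 arrays); blue ticks give the value under other processing and orange ticks with 1 array left out. The intervals all include 0, and that of miR-205, -1.44 to 2.05, is the widest.

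Other miRNAs best known from tissues other than the heart were detected as well. Besides miR-192-5p, miR-194-5p and miR-203a-3p, the miRNAs well above background on all 6 arrays included miR-7a-5p (islet and neuroendocrine cells), miR-216b-5p (exocrine pancreas), miR-124-3p, miR-9a-5p and miR-9a-3p (neurons). Of 11 miRNAs of the X-linked testis cluster, 3 were well above background on all arrays (miR-465-5p, miR-743a-3p and miR-878), 2 on some (miR-871-3p and miR-880-3p) and 6 on none. Of 10 miRNAs typical of embryonic stem cells, 3 were so on all arrays (miR-290, miR-292-5p and miR-295-5p), 2 on some (miR-291a-5p and miR-294) and 5 on none. None of the tested members of these lists passed (0 of 13, limma adjusted p of 0.409 or more), a count that at the 0.471% called among all miRNAs says nothing about these lists. miR-217-5p of the exocrine pancreas was detected on 2 high-fat arrays and 0 chow arrays, as miR-122-3p was. Its mean scaled log2 signal was nevertheless not higher on high-fat, at -5.61 against -5.50 on chow. In all, 27 of the 758 miRNAs were detected on at least 2 high-fat arrays and 0 chow arrays, and 0 the other way round.

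Lists for blood cells and for other epithelia are given beside the members. The red cell miRNAs miR-451-5p, miR-144-3p and miR-144-5p were well above background on all 6 arrays, with log2 differences of 0.57, 1.30 and 0.61 (limma adjusted p from 0.0614 to 0.412), and the myeloid miR-223-3p differed by 0.25 (adjusted p = 0.456). Of the epithelial miR-200 family, miR-141-3p was present on all 6 arrays and was 1.71 higher on the high-fat diet (limma adjusted p = 0.0425, and not called with slide as a block, where 0 miRNAs were), miR-200c-3p on 4 and miR-200a-3p and miR-200b-3p on 1, while miR-429 was present on none. The scaled log2 signal of miR-141-3p ran from -3.55 to -1.47. On the 2 arrays highest in miR-205 it was at the bottom of this range in one, chow replicate 2, and at the top in the other, high-fat replicate 2. In the 6 muscle miRNAs the log2 differences were all negative, from -0.97 to -0.04 with a median of -0.29. The diets did not overlap for 4 of the 6, against 17.2% of all miRNAs, and 0 of 6 passed the limma test, against 0.471%. The part of such cells in the values of the 7 miRNAs was not tested.

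**Figure D4:**
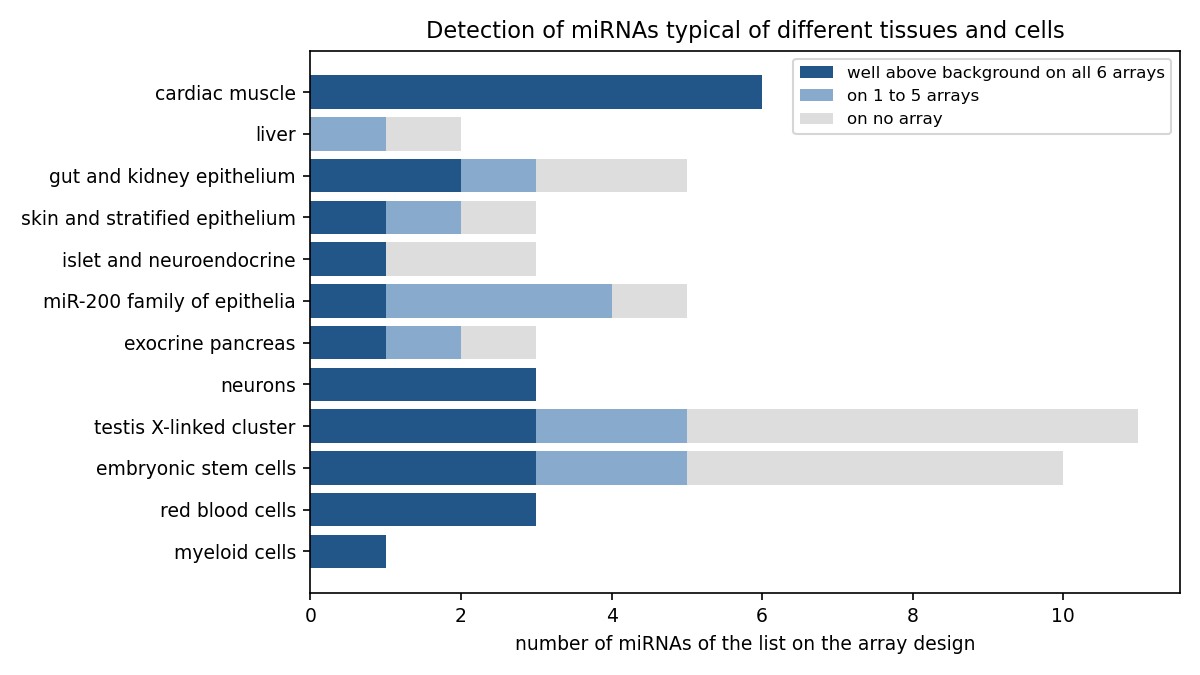
Number of miRNAs of each list that were well above background on all 6 arrays, on 1 to 5 arrays or on none; the bar length is the number of listed miRNAs on the array design. All 6 muscle miRNAs are detected throughout, as are the 3 of the neuron list, the 3 of red cells and the 1 of myeloid cells. In the testis and stem cell lists 3 of 11 and 3 of 10 are, against 49.9% of all 758 miRNAs.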

How the data were processed

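Per the labels' protocols, Cy3-labelled total RNA was put on Agilent miRNA arrays. The deposited spot files hold fluorescence intensity values made by Agilent Feature Extraction 11.0.1.1 according to the submitters' processing notes and, per the file headers, background-subtracted and detrended per array, with quality flags. The authors' deposited value table is on a log2 scale and has the same median (3.54) in every column; it was used as an alternative.

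From each array's 12128 spots for 1806 probes (715 control spots left out), outlier-flagged spots (9.07% to 9.42%) were dropped, spots averaged, and probes divided by the 75th percentile of the 757 probes that passed background on every array. Values under a floor (1st percentile of detected signals, log2 of -5.82) were set to it. The brightest probe stood for a miRNA. The diets were compared over 425 miRNAs with limma 3.58.1 (R 4.3.3; lmFit, eBayes, Benjamini-Hochberg, threshold 0.05). On simulated data with 60 of 425 miRNAs changed, 96.5% of log2 changes of 1 and 64.0% of changes of 0.5 were recovered. The data themselves gave 2 calls, and recovery with fewer changed miRNAs was not simulated. These shares cannot be carried over to miR-205, whose SE was 0.75 against a median SE of 0.128 over all tested miRNAs. Saturated spots numbered 0. The members and lists were chosen with earlier results of these data known. Besides members, their partner strands and relatives, list members present on some array and the 3 nearest profiles of each member present on all arrays are named. Alternatives were other scalings, background corrections, signals, floors, filters, blocks and left-out arrays.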

Additional observations from a re-analysis of the deposited data

Results flagged for a closer look

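The signal of miR-122-3p fell outside the tested comparison and was above the level in every chow sample: the highest high-fat array gave 21.1 fluorescence units, against a chow maximum of 2.80. It came from high-fat replicates 2 and 3, and high-fat replicate 1 gave 2.79.

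The signal of miR-122-5p, likewise untested, reached 8.62 on high-fat replicate 2 against a chow maximum of 5.18 before scaling. After scaling, and before the log2 was taken, these 2 signals were closer, at 0.0162 and 0.0138. The scanner software called miR-122-5p detected on 2 high-fat arrays and 0 chow arrays, although 0 of its spots were flagged well above background. It called 490 and 519 miRNAs detected on those 2 arrays, against 433 to 461 on chow. The share of all miRNAs with this pattern of calls is not given here. Only untested members that the software detected on high-fat arrays and 0 chow arrays were eligible for this section. A member with the opposite pattern could not be flagged. The groups of 3 arrays were too small for a test of single outlying samples.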

How the results depend on the processing

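No member passed the limma test in any of the 21 alternatives run (0 called in each). At most 8 of all miRNAs were called in any of them, so this count says nothing about the members in particular. The same 3 members stayed well above background on all arrays under each of 4 other detection rules. Leaving out 1 array could not change that count. In the main fit the differences of 3 members lay within 0.1 log2 of 0, and that of miR-205 was imprecise, at 0.31 ± 0.75 SE. The differences of all 4 tested members changed sign under some of the processing, and the cause was not tested. With normexp background correction they were -0.033 for miR-192-5p, -0.022 for miR-194-5p and -0.159 for miR-205. With the software's total signal they were -0.080 for miR-192-5p and -0.077 for miR-194-5p. With the authors' deposited value table miR-194-5p differed by -0.011. miR-203a-3p differed by 0.317 without scaling, where the median of all miRNAs was 0.321. With slide as a block or within slide 1 it differed by 0.081, and both set high-fat against chow replicate 1 only. With 1 array left out the differences were -0.111 to 0.125 for miR-192-5p, -0.054 to 0.175 for miR-194-5p, -0.119 to 0.062 for miR-203a-3p and -0.388 to 1.01 for miR-205. The number of members whose arrays did not overlap was 2 without scaling, 1 within slide 1, where only 1 chow array was compared, and 0 to 1 with 1 array left out. The share of 17.2% of all miRNAs holds for the main setting only. No share is given for these alternatives, so these counts say nothing about the members in particular. miR-205 was not tested when presence on all 6 arrays was required. Over all miRNAs, limma called 2, against 8 with normexp, 5 without scaling and between 0 and 3 in the other alternatives. Same-numbered samples of the 2 diets share only a number: the correlations of their deviations were -0.012 to 0.219, and 1 of 3 chow samples correlated best with its own number. With the replicate number as a block 3 miRNAs were called, and miR-205 kept its difference of 0.307 (limma adjusted p = 0.549). Signals near background limit miR-122, miR-205 and miR-375 most. With undetected values at the detection limit of their array, added after seeing the data, the SD of miR-205 over the arrays was 0.914 in place of 1.12.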

Other observations

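Among the tested miRNAs with a wide spread over the 6 arrays was miR-31a-5p, named after its values were seen. In humans miR-31 is known from keratinocytes. Its scaled log2 signal was -3.44, -3.87 and -4.64 in the chow samples, and -4.45, -2.05 and -4.64 in high-fat replicates 1, 2 and 3, with an SD of 1.00, and it was well above background on all 6 arrays. High-fat replicate 2, the array with the most miR-205, was also its highest. The other arrays did not follow miR-205. The second highest in miR-31a-5p was chow replicate 1, where miR-205 was not detected, and high-fat replicate 3, where miR-205 was detected, was among the lowest.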
